A study of Homo sapiens with 12 samples.

Results

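The genes described here encode the proteins of the mitochondrial ribosome. They were chosen by symbol, as MRPL or MRPS followed by a number and at most 1 more letter, and by measured level, as at least 1 TPM (a length-normalised share of the transcripts in a library) in at least 3 of the 12 libraries. Of the 25540 genes present in both deposited tables, 78 symbols had this form and 77 passed the level filter, 26 of the small subunit and 51 of the large subunit. The remaining gene, MRPS24, is listed at 0 in 10 libraries and had at most 0.527 TPM in the other 2, both of LS411N without doxycycline. The filter lay well below the members, since the weakest, MRPS18B, had a third-highest deposited value of 5.54 TPM and the next, MRPS11, had 8.37 TPM.

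RNA was measured in LS411N-BR, a derivative that withstands BRAF inhibitors, and in LS411N, the human colon cancer line it comes from. The 4 groups were LS411N-BR with 500 ng/ml doxycycline, LS411N-BR without doxycycline, LS411N with 500 ng/ml doxycycline and LS411N without doxycycline, with 3 libraries each. LS411N-BR was kept in 4 µM of a BRAF inhibitor in both of its groups, LS411N in none, and 0.1% DMSO was the vehicle. All 12 libraries came from puromycin-resistant cells that carry a tetracycline-inducible hairpin against MUC1, in RPMI medium with serum. Every library with doxycycline therefore also had the hairpin switched on, and the effect of the drug and that of MUC1 loss cannot be told apart in these groups. The line and the BRAF inhibitor cannot be told apart either, so every difference between the lines given below may hold a part of the inhibitor.

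Mitochondrial ribosomes make a handful of hydrophobic subunits of the respiratory chain and the ATP synthase from mRNAs encoded in mitochondrial DNA. Their own proteins are encoded in the nucleus, translated in the cytosol and imported, and many descend from bacterial ribosomal proteins. Tetracyclines such as doxycycline bind the small subunit of bacterial ribosomes, and they also slow translation by the related mitochondrial ribosome, which is known to disturb the balance between nuclear and mitochondrial subunits of the respiratory chain. The question put to these data was whether the mRNAs of the mitochondrial ribosomal proteins moved with doxycycline in either line.

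RefSeq promoters (GRCh38.p14) were matched for 68 of the 77 members, and 6 stretches of 60 bases are shown because their genes recur in the results below. Capitals mark matches on either strand to TGCGCA (the core of the site of NRF1, a factor known to drive nuclear genes of mitochondria), CCGGAAG (the core bound by ETS factors such as GABPA) or AAGATGGC (YY1). MRPL17 and MRPL42 fell most with doxycycline, MRPL32 fell in LS411N-BR, MRPL20 and MRPL58 rose, and MRPS10 responded differently in the lines. In MRPL17 the 2 capitalised NRF1 cores adjoin, and in MRPL42 none of these letters was found in the 250 bases before the start.
MRPL17, chr11:6683402-6683461, minus strand: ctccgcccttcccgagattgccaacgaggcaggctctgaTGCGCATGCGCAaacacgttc
MRPL42, chr12:93467428-93467487, plus strand: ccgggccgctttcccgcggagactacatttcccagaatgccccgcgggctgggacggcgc
MRPL32, chr7:42932140-42932199, plus strand: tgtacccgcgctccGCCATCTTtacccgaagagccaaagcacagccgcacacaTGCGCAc
MRPL20, chr1:1407314-1407373, minus strand: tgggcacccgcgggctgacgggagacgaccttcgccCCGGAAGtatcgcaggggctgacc
MRPL58, chr17:75012610-75012669, plus strand: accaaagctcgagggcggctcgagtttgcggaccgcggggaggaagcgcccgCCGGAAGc
MRPS10, chr6:42217866-42217925, minus strand: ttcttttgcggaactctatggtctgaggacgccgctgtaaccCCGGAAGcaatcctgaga

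Over the 250 bases before each start, the ETS core was present in 23 of 68 member promoters (33.8%), against 17.1% of the 8857 promoters of tested genes and 8.82% of all 27305. The NRF1 core was present in 13 member promoters (19.1%), against 12% of those of tested genes and 7.05% of all. The YY1 letters were found in 5 (7.35%), against 2.02% and 1.37%. TATAAA, the TATA box, was found in 2 (2.94%), against 5.09% and 11.1%, and CACGTG, the E-box of MYC and its relatives, in 6 (8.82%), against 9.27% and 6.49%. A match is a description of the letters and not evidence of binding. The E-box and the NRF1 core read the same on both strands, and no motif was searched outside this window. The 77 genes lie on 21 chromosomes. MRPL46 and MRPS11 are neighbours on chromosome 15, on opposite strands and facing away from each other, with 33 bases between their annotated starts.

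Each library's TPM was divided by its median-of-ratios factor over all 12 libraries (0.837 to 1.19), and these values are called scaled TPM. The reason was that a few genes took a large and variable part of the TPM. The 10 highest genes of those in both tables held 29.4 to 56.2% of it in a library. Genes in both tables summed to 760502 to 802862 TPM in LS411N libraries and to 1e+06 TPM in those of LS411N-BR. Protein-coding genes in both tables held 40.6 to 51.2% of the deposited TPM. Depth is unknown, since only TPM was given. MUC1, the hairpin's target, had 0.442 ± 0.125 scaled TPM with doxycycline and 4.01 ± 0.331 without it in LS411N-BR, and 0.954 ± 0.114 and 5.65 ± 1.53 in LS411N (SD, n = 3), so it fell in both lines (limma adjusted p = 8e-08 and 8e-05). Replicate 3 of LS411N without doxycycline stood apart. The SD of its log2 differences from the other libraries of its group was 0.222 and 0.227, while the other pairs lay between 0.0942 and 0.122. Of 12 markers of colon epithelium, 11 passed the filter, with a summed level of 4160 to 4299 scaled TPM with doxycycline and 3377 to 3530 without it in LS411N-BR, and of 3512 to 3759 and 2756 to 2957 in LS411N. The 10 fibroblast and endothelial markers summed to at most 3.58 scaled TPM in any library. Of 10 immune markers 8 stayed below the filter, 2 of them at 0 in all libraries. The sum of the list was 103 to 108 scaled TPM with doxycycline and 183 to 193 without it in LS411N-BR. In LS411N it was 1430 to 1502 with doxycycline and 2721 to 2877 without it. The sum came from LYZ, a secreted lysozyme, and CD68, which moved in opposite directions. LYZ fell (log2 fold change -1.81 in LS411N-BR and -0.96 in LS411N) and CD68 rose (0.80 and 1.13). The part of these shifts in the results below was not tested.

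The members differed widely in level. MRPL51, a large-subunit protein specific to mitochondria, had the highest mean level, with 314, 320 and 304 scaled TPM in LS411N-BR with doxycycline, against 341, 348 and 325 without it. In LS411N it had 478, 464 and 490 scaled TPM with doxycycline, against 467, 442 and 440 without it. MRPL3, which reaches towards the peptidyl transferase centre, and MRPS35, a mitochondria-specific small-subunit protein, followed, at 166 to 217 and 165 to 204 scaled TPM over the 4 group means. MRPS14, MRPS11 and MRPS18B had the lowest levels. MRPS18B averaged 2.97 ± 0.141 scaled TPM with doxycycline and 3.56 ± 0.166 without it in LS411N-BR, and 5.59 ± 0.118 and 6.07 ± 0.086 in LS411N (SD, n = 3). The median member had 30.6 to 43.6 scaled TPM in a library. The mRNAs of this complex thus spanned about 2 orders of magnitude.

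**Figure D1:**
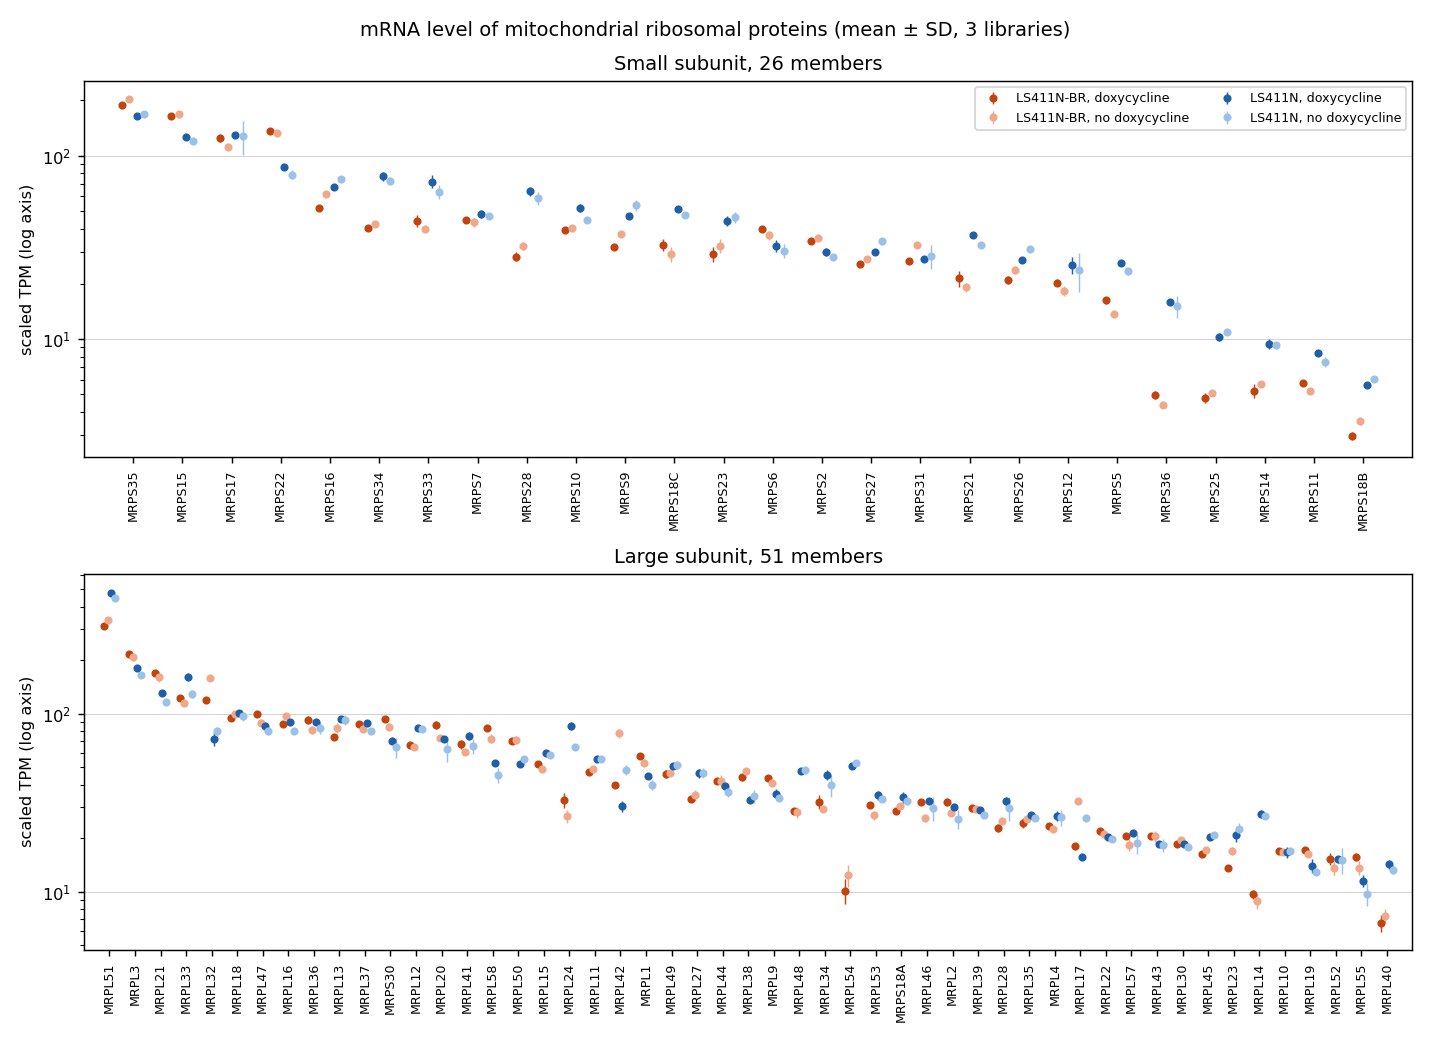
Mean level of each member in scaled TPM (log axis, points, with bars for the SD of 3 libraries) in LS411N-BR with doxycycline, LS411N-BR without it, LS411N with it and LS411N without it, with the small subunit above and the large subunit below, ordered by mean level. MRPL51 stands highest and MRPS18B lowest, and MRPL54 and MRPS36 lie far lower in LS411N-BR than in LS411N.

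With doxycycline the family did not move as a block. In LS411N-BR, 23 of 77 members were called higher and 18 lower, and 36 did not pass the test (limma on log2(scaled TPM + 1), Benjamini-Hochberg adjusted p under 0.05 over all 11674 genes tested). Over all genes tested in that comparison, 32.4% were called higher and 31.2% lower. The median log2 fold change of the members was 0.01, beside 0.00 for all genes tested. In LS411N, 9 members were called higher and 5 lower, and 63 did not pass, beside 18.2% higher and 16% lower over all genes tested. The median was 0.07, beside 0.01 for all genes. Neither line thus had a larger share of called members than of called genes overall. Fewer cells of a kind and less RNA per cell cannot be told apart in such bulk libraries, and the p-values measure the spread among triplicate cultures, which may be technical.

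The counts depended on how libraries were set against each other. With TPM as deposited, 48 members were called higher and 3 lower in LS411N-BR, where 55.1% of all genes were called higher and 11.3% lower. The median of all genes was then 0.18 and that of the members 0.21. In LS411N, 1 member was higher and 2 lower with deposited TPM, beside 9.5% and 3.33% of all genes, with medians of 0.15 for the members and 0.08 for all genes. Rescaling over protein-coding genes gave 39 members higher and 8 lower in LS411N-BR, where 5167 and 2390 of the 11674 genes tested were so called. In LS411N it gave 18 members higher and 2 lower, beside 2766 and 1267 genes. Members called with the same sign under both scaled and deposited TPM numbered 23 higher and 3 lower in LS411N-BR, and 1 higher and 2 lower in LS411N. The share of all genes called under both was not counted. The median of all genes in LS411N-BR was 0.00 with scaled and 0.18 with deposited TPM. That shift favours rises there, so the agreement of the 23 is not separate support for them. Without replicate 3 of LS411N without doxycycline, 22 members were called higher and 6 lower in LS411N, beside 2843 and 2590 genes.

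Most changes were small. A log2 change of at least 0.25 in either direction was reached by 9 members in LS411N-BR and 4 in LS411N. Of the 11674 genes tested, 3778 and 3030 reached it. In LS411N-BR, all 3 libraries with doxycycline lay above all 3 without it for 22 members and below them for 19, where 34.8% and 33.7% of all genes did so. In LS411N the numbers were 19 above and 9 below, where 25.3% and 23.7% of all genes did so. The summed level of the 77 members was 4014 to 4113 scaled TPM with doxycycline and 4030 to 4180 without it in LS411N-BR, ranges that overlap. In LS411N it was 4365 to 4418 with doxycycline and 4084 to 4267 without it, ranges that do not overlap.

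**Figure D2:**
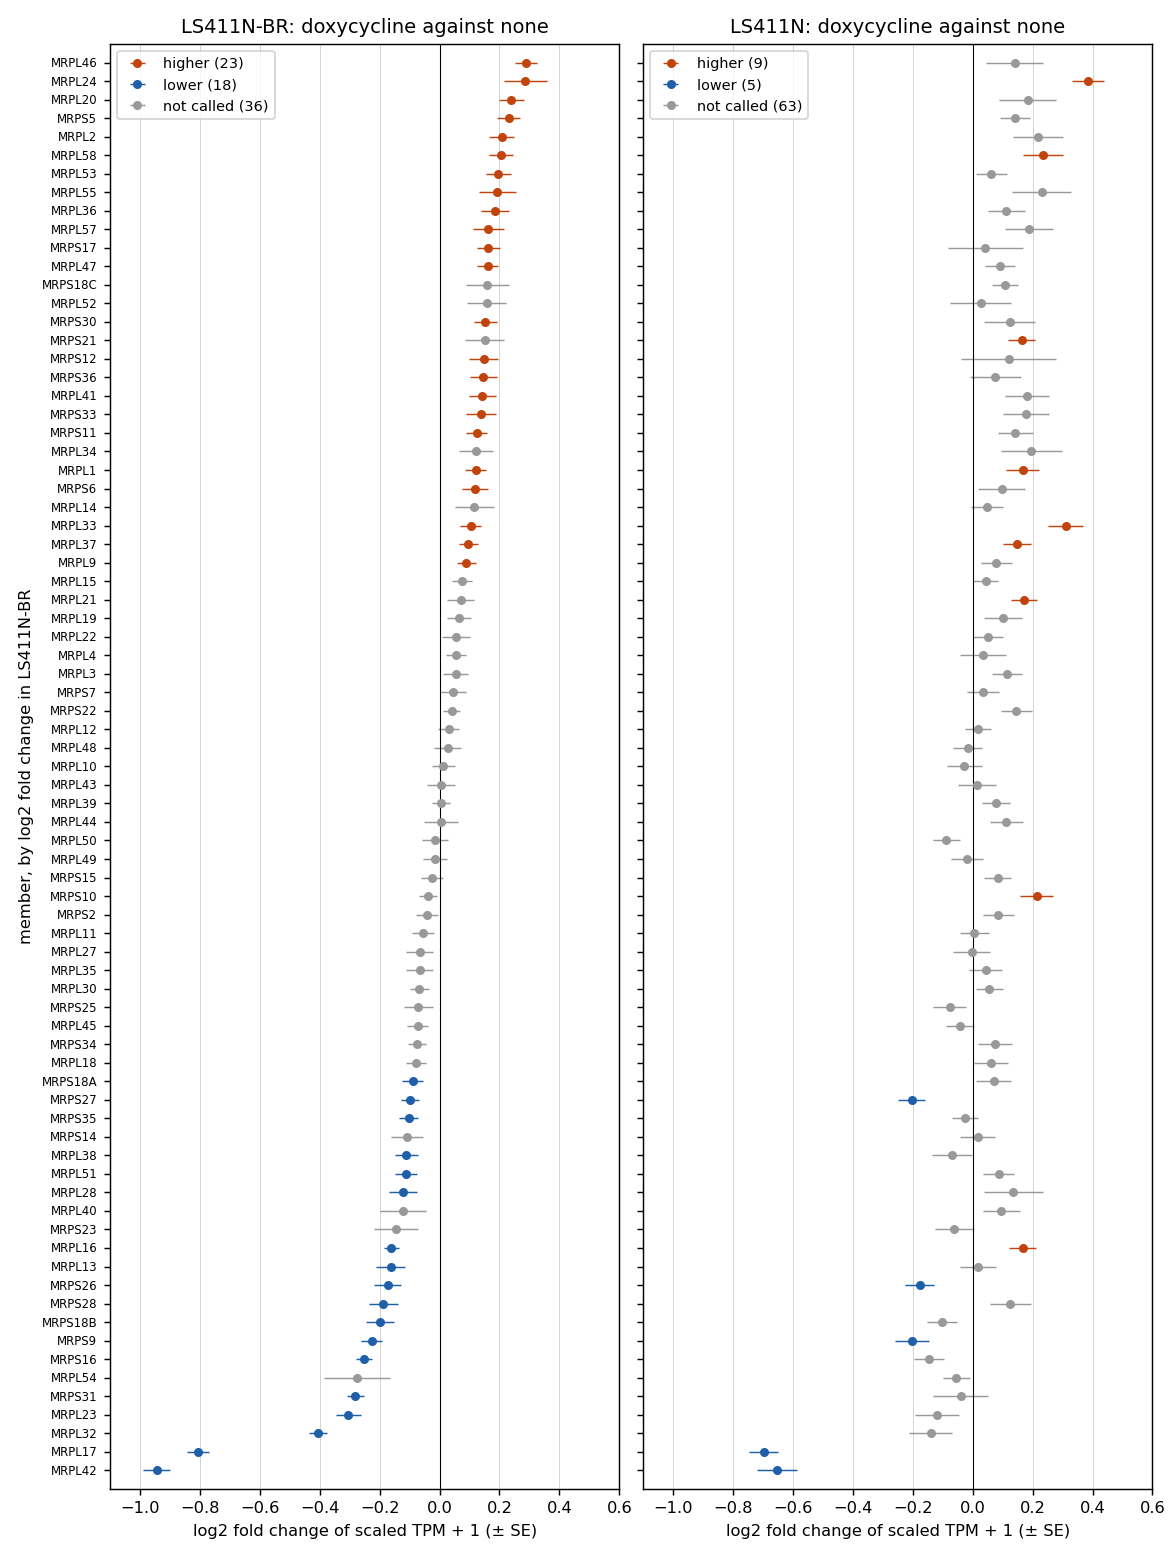
Log2 fold change of each of the 77 members with doxycycline against none (points, with bars for the SE), in LS411N-BR on the left and LS411N on the right, with called members coloured. Members run down the page by their value in LS411N-BR. MRPL17 and MRPL42 stand apart at the low end in both lines, and most other members lie within 0.25 of 0.

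MRPL42 and MRPL17 were the exceptions, and they fell in both lines. MRPL42, a large-subunit protein specific to mitochondria (chr12:93467488-93516213, plus strand, GRCh38), had 41.2, 38.3 and 40.4 scaled TPM in LS411N-BR with doxycycline, against 74.8, 75.7 and 83.1 without it. Levels in LS411N were 28.2, 30.4 and 32.5 scaled TPM with doxycycline, against 48.3, 45.2 and 51.5 without it. The groups did not overlap in either line, and every library with doxycycline was far below every library without it. The log2 fold change was -0.94 ± 0.04 SE in LS411N-BR (limma adjusted p = 1.9e-07) and -0.65 ± 0.07 SE in LS411N (adjusted p = 0.00021). The difference between the lines was -0.29 ± 0.09 SE and missed the threshold (adjusted p = 0.0503). The annotation names 4 pseudogenes after MRPL42 and a 7SL pseudogene, RN7SL737P, that overlaps its exons on the same strand, so part of its reads may be shared.

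MRPL17, the counterpart of a bacterial protein beside the peptide exit tunnel (chr11:6680782-6683401, minus strand), had 17.1, 18.1 and 18.8 scaled TPM in LS411N-BR with doxycycline, against 32.5, 32.4 and 31.9 without it. In LS411N it had 16.1, 15 and 15.8 scaled TPM with doxycycline, against 25.4, 25.7 and 26.9 without it. The levels with doxycycline were close in both lines. The log2 fold change was -0.81 ± 0.04 SE in LS411N-BR (limma adjusted p = 1.5e-07) and -0.70 ± 0.05 SE in LS411N (adjusted p = 2.9e-05), and the difference of -0.11 ± 0.06 SE did not pass (adjusted p = 0.27). No exon of another gene overlaps it, and no pseudogene is named after it. MRPL42 and MRPL17 were also the only members called lower by at least 0.5 on the log2 scale in both lines, a mark reached by 222 genes (1.9%) in all. Both kept their call in both lines under every alternative tried, at -0.97 to -0.74 in LS411N-BR and -0.70 to -0.57 in LS411N for MRPL42, and at -0.84 to -0.61 and -0.73 to -0.62 for MRPL17.

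**Figure D3:**
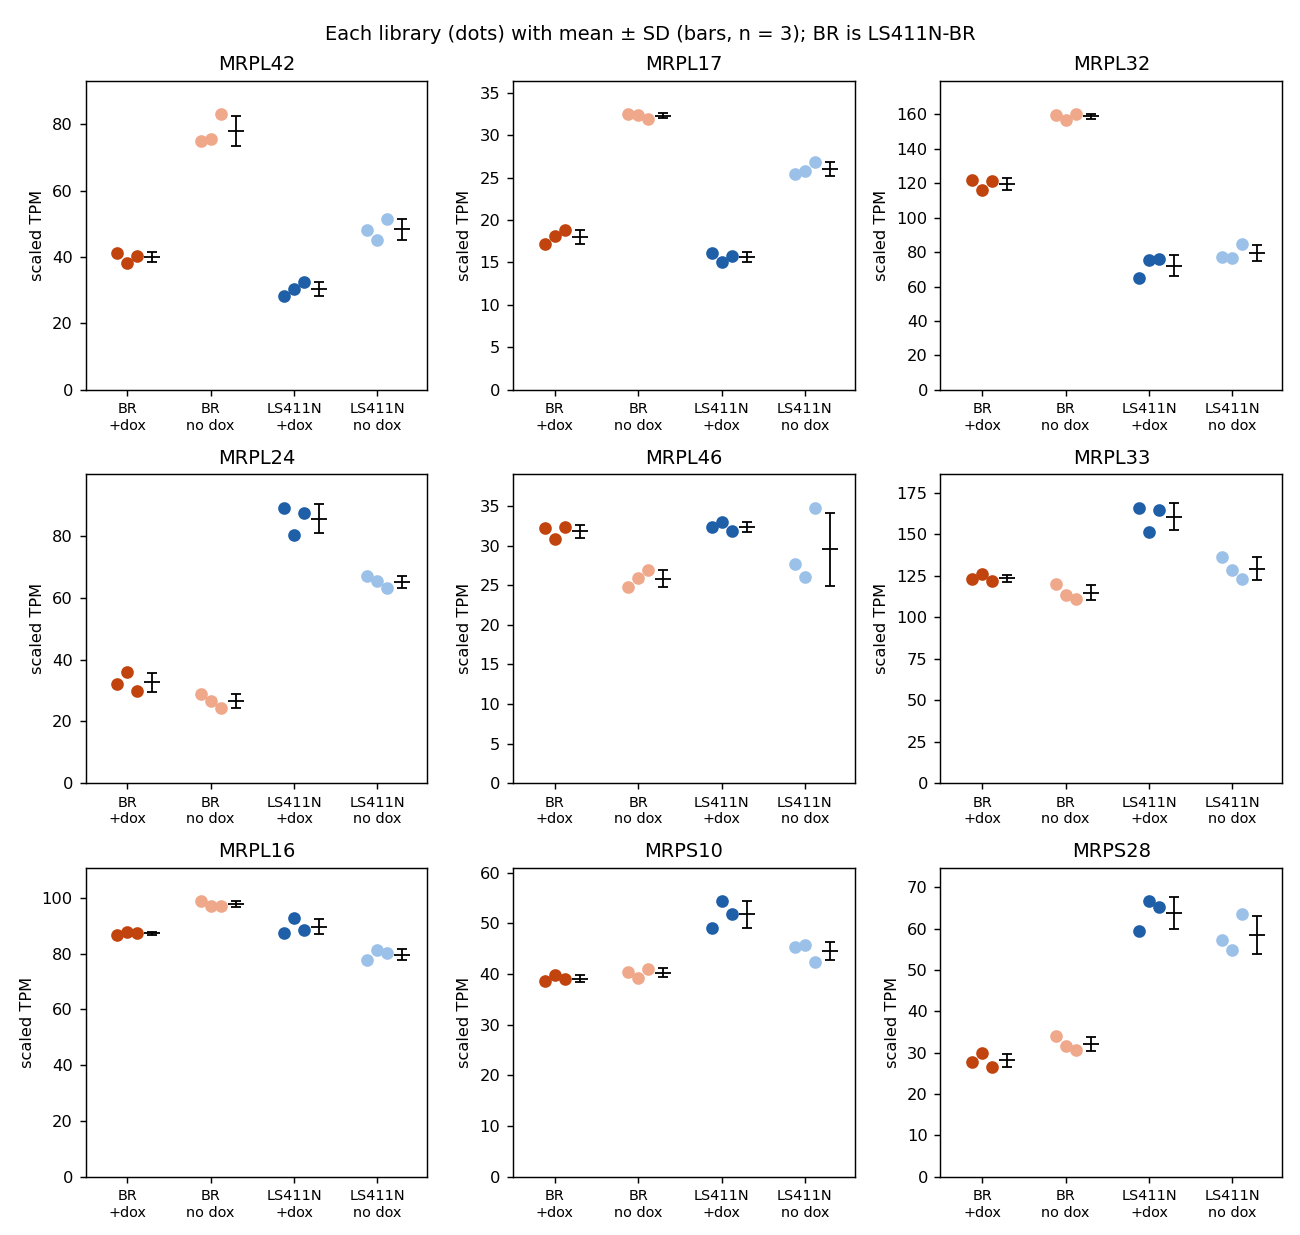
Scaled TPM of 9 members in each library (dots), with the mean and SD of 3 libraries (bars), in LS411N-BR with doxycycline, LS411N-BR without it, LS411N with it and LS411N without it. MRPL42 and MRPL17 are lower with doxycycline in both lines, and MRPL16 is lower with it in LS411N-BR (87.3 against 97.7 scaled TPM) and higher with it in LS411N (89.6 against 79.7).

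MRPL32 fell in LS411N-BR. It is a large-subunit protein that, in yeast and mouse, the m-AAA protease must cleave before it joins the ribosome. It had 122, 116 and 121 scaled TPM in LS411N-BR with doxycycline, against 159, 157 and 160 without it (log2 fold change -0.41 ± 0.03 SE, limma adjusted p = 3.3e-06), and the call held under every alternative. Levels in LS411N were 65, 75.4 and 76.3 scaled TPM with doxycycline, against 77.2, 76.6 and 84.8 without it, and the change of -0.14 did not pass (adjusted p = 0.17). The difference between the lines was -0.27 ± 0.08 SE (adjusted p = 0.0568), which does not show that they differ. Exons of PSMA2, a proteasome subunit, overlap MRPL32 on the other strand, and it is unknown whether the counting used strand. PSMA2 itself had a log2 fold change of 0.02 in LS411N-BR.

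Other falls were smaller and depended on the scaling. In LS411N-BR, MRPL23, which lines the tunnel exit, averaged 13.5 ± 0.355 scaled TPM with doxycycline and 17 ± 0.938 without it (-0.31 ± 0.04 SE, limma adjusted p = 0.00017). MRPS31, a mitochondria-specific protein of the small subunit, averaged 26.6 ± 0.247 with doxycycline and 32.6 ± 0.643 without it (-0.28 ± 0.03 SE, adjusted p = 2.4e-05). MRPS16, whose loss causes a neonatal respiratory chain disease, averaged 51.7 ± 0.547 and 61.8 ± 0.799 scaled TPM (-0.25 ± 0.03 SE, adjusted p = 3.2e-05). With deposited TPM the changes of MRPL23, MRPS31 and MRPS16 in LS411N-BR were -0.11, -0.08 and -0.05 and no longer passed. In LS411N their changes were -0.12, -0.04 and -0.15, and none of these passed.

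A trio of small-subunit mRNAs was called lower in both lines. MRPS9, which in the bacterial ribosome extends its tail to the tRNA in the P site, averaged 31.7 ± 1.08 scaled TPM with doxycycline and 37.2 ± 1.2 without it in LS411N-BR, and 46.6 ± 0.967 and 53.8 ± 3.68 in LS411N. Its log2 fold changes were -0.23 and -0.20. MRPS27, a pentatricopeptide repeat protein, changed by -0.10 and -0.20, and MRPS26 by -0.17 and -0.18 in LS411N-BR and LS411N. In LS411N all libraries with doxycycline lay below all without it for each of the trio. These calls were lost with deposited TPM, where MRPS27 and MRPS26 turned positive in LS411N-BR, at 0.10 and 0.02.

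MRPL24 rose in both lines. It is the counterpart of a bacterial protein that starts assembly of the large subunit. It had 32.3, 36 and 29.8 scaled TPM in LS411N-BR with doxycycline, against 28.9, 26.6 and 24.3 without it (0.29 ± 0.07 SE, limma adjusted p = 0.0068). In LS411N it had 89.2, 80.3 and 87.3 scaled TPM with doxycycline, against 67, 65.6 and 63.2 without it (0.39 ± 0.05 SE, adjusted p = 0.00097). It was the only member called higher in LS411N with both scaled and deposited TPM. Without a filter on low values its call in LS411N-BR was lost.

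Further members of both subunits rose. Of the large-subunit members 31.4% were called higher in LS411N-BR and of the small-subunit members 26.9%, beside 32.4% of all genes tested. In LS411N-BR, MRPL46, a mitochondria-specific protein, had 32.2, 30.9 and 32.4 scaled TPM with doxycycline, against 24.8, 25.9 and 26.9 without it (0.29 ± 0.04 SE, limma adjusted p = 0.0001). MRPL20, whose bacterial counterpart binds ribosomal RNA early in assembly, averaged 86.9 ± 4.27 with doxycycline and 73.4 ± 2.56 without it (0.24 ± 0.04 SE, adjusted p = 0.00071). In LS411N their changes were 0.14 and 0.18 and did not pass, and replicate 3 without doxycycline lay above the other 2 libraries of its group. Without that library they were 0.26 and 0.30 and passed. MRPS5, a small-subunit protein whose bacterial counterpart bears on decoding accuracy, rose by 0.23 ± 0.04 SE in LS411N-BR (adjusted p = 0.00054), and MRPL2, close to the peptidyl transferase centre, by 0.21 ± 0.04 SE (adjusted p = 0.0018). Their changes in LS411N were 0.14 and 0.22 and did not pass.

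MRPL58 is a peptidyl-tRNA hydrolase, also called ICT1, that frees peptides from stalled ribosomes and is built into the large subunit. It averaged 83.6 ± 1.45 scaled TPM with doxycycline and 72.5 ± 4.04 without it in LS411N-BR (0.20 ± 0.04 SE, limma adjusted p = 0.0016), and 53.1 ± 1.36 and 45.1 ± 4.19 in LS411N (0.24 ± 0.07 SE, adjusted p = 0.027). MRPL33 averaged 160 ± 8.18 scaled TPM with doxycycline and 129 ± 6.8 without it in LS411N (0.31 ± 0.06 SE, adjusted p = 0.0042), and 123 ± 2.22 and 115 ± 4.47 in LS411N-BR (0.10 ± 0.03 SE, adjusted p = 0.025). MRPL1, part of the stalk that releases spent tRNA, rose by 0.12 in LS411N-BR and by 0.17 in LS411N. MRPL21 rose by 0.17 in LS411N, while its 0.07 in LS411N-BR did not pass. The calls in LS411N of MRPL58, MRPL33, MRPL1 and MRPL21 were lost with deposited TPM, although the fold changes were then larger, at 0.32, 0.39, 0.25 and 0.25.

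Members chosen for their role, whatever their change, are given next. MRPS12, in the decoding centre, averaged 20.3 ± 0.929 scaled TPM with doxycycline and 18.2 ± 1.14 without it in LS411N-BR (0.15 ± 0.05 SE, limma adjusted p = 0.023), and its 0.12 in LS411N did not pass. MRPL10 and MRPL12 form the stalk that receives translation factors, and MRPL12 is also known to bind the mitochondrial RNA polymerase. MRPL10 averaged 16.8 ± 0.549 and 16.7 ± 0.644 scaled TPM with and without doxycycline in LS411N-BR, and MRPL12 66.7 ± 2.88 and 65.2 ± 0.612. Their log2 fold changes were 0.01 and 0.03 in LS411N-BR and -0.03 and 0.02 in LS411N, with overlapping groups. MRPL45, which holds the ribosome at the inner membrane, changed by -0.07 in LS411N-BR and -0.04 in LS411N, and neither passed. Of the MRPS18 paralogs, MRPS18B of the small subunit fell by 0.20 in LS411N-BR (adjusted p = 0.0044), a call lost with deposited TPM (-0.04). MRPS18C, also of the small subunit, changed by 0.16 and did not pass. MRPS18A of the large subunit fell by 0.09 (adjusted p = 0.048), but its change was 0.11 with deposited TPM.

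Calls in both directions were found in each subunit and each class of descent. In LS411N-BR, 7 of 26 small-subunit members were called higher and 8 lower, with a median of -0.04, and 16 of 51 large-subunit members were called higher and 10 lower, with a median of 0.03. In LS411N the counts were 2 higher and 3 lower in the small subunit, and 7 higher and 2 lower in the large, with medians of 0.07 in each. Of the 47 members with a bacterial counterpart, 14 were higher and 11 lower in LS411N-BR, and 7 and 2 in LS411N. Of the 30 found only in mitochondrial ribosomes, 9 were higher and 7 lower in LS411N-BR, and 2 and 3 in LS411N. These differences between classes were not tested.

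The 2 lines gave similar patterns. Across the 77 members, the log2 fold changes with doxycycline in LS411N-BR and LS411N had a Pearson correlation of 0.84, or 0.70 without MRPL42 and MRPL17. Across all 11674 genes it was 0.79. The members of a line share its libraries and are not independent, so the value is a description. The sign was the same in both lines for 59 members (76.6%) and for 78.8% of all genes. Members called higher in both lines numbered 5, and members called lower in both also 5, where 15.3% and 13.5% of all genes were so called.

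**Figure D4:**
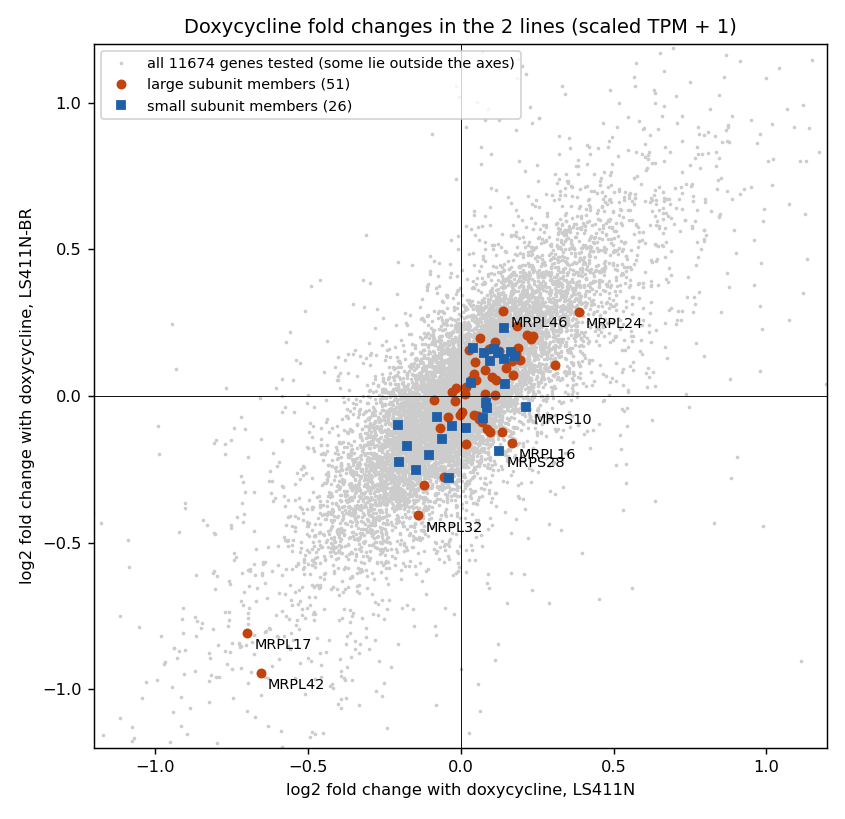
Log2 fold change with doxycycline in LS411N (horizontal axis) and in LS411N-BR (vertical axis) for large-subunit members (circles), small-subunit members (squares) and all genes tested (grey dots). MRPL42 and MRPL17 lie at the lower left, and MRPL16 lies at a positive value in LS411N (0.17) and a negative value in LS411N-BR (-0.16).

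The effect of doxycycline was called different between the lines for 3 members, beside 10.2% of all genes tested, and in each the value in LS411N-BR was the lower. MRPL16, which helps to place tRNA at the peptidyl transferase centre, had 86.7, 87.7 and 87.4 scaled TPM in LS411N-BR with doxycycline, against 98.9, 97.1 and 97.1 without it. Levels in LS411N were 87.6, 92.7 and 88.5 scaled TPM with doxycycline, against 77.7, 81.2 and 80.2 without it. The groups did not overlap in either line, and MRPL16 was the only member called in opposite directions. The difference was -0.33 ± 0.05 SE (limma adjusted p = 0.00086). MRPS10, a protein of the small-subunit head, changed by -0.04 in LS411N-BR and rose by 0.21 in LS411N (difference -0.25 ± 0.06 SE, adjusted p = 0.021). MRPS28 fell by 0.19 in LS411N-BR, and its 0.13 in LS411N did not pass (difference -0.31 ± 0.09 SE, adjusted p = 0.045). With deposited TPM no member was called different, beside 2.12% of all genes. On deposited TPM the changes in LS411N-BR of MRPL16, MRPS10 and MRPS28 turned positive, at 0.04, 0.16 and 0.01. Without replicate 3 of LS411N without doxycycline, the effect was called lower in LS411N-BR than in LS411N for 9 members, beside 1230 genes.

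The lines also differed in the level of single members, which is given without a test. Only LS411N-BR was kept in the BRAF inhibitor, so line and inhibitor cannot be told apart in these levels. The 2 deposited tables were normalised separately, and the factors above set only their common genes, by the median, on a shared scale. With doxycycline, all libraries of LS411N-BR lay above all of LS411N for 22 members and below them for 39, where 41.3% and 40.5% of all genes did so. Without doxycycline the numbers were 23 above and 36 below, where 38.8% and 37.1% of all genes did so. The median log2 difference of LS411N-BR minus LS411N was -0.15 with doxycycline and -0.14 without it, beside 0.00 and 0.01 for all genes. MRPL54 stood furthest apart, with 8.44, 11.7 and 10.2 scaled TPM in LS411N-BR with doxycycline, against 50.7, 52.3 and 49.8 in LS411N with doxycycline. Without doxycycline it had 11.9, 14.4 and 11 scaled TPM in LS411N-BR, against 53, 51.1 and 54.6 in LS411N.

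MRPS36, since recognised as a subunit of the oxoglutarate dehydrogenase complex, averaged 4.97 ± 0.268 scaled TPM in LS411N-BR and 15.9 ± 0.447 in LS411N with doxycycline. MRPL14, at the interface of the subunits, averaged 9.65 ± 0.561 and 27.4 ± 1.52. MRPL24, described above, was also lower in LS411N-BR, at 32.7 ± 3.1 against 85.6 ± 4.66. MRPL32, MRPS22 and MRPL58 were higher in LS411N-BR. MRPS22, a mitochondria-specific small-subunit protein, averaged 137 ± 1.05 scaled TPM in LS411N-BR and 87.1 ± 0.572 in LS411N with doxycycline.

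Genes that work with the mitochondrial ribosome gave a mixed picture. Over all genes tested, 32.4% were called higher and 31.2% lower in LS411N-BR, and 18.2% and 16% in LS411N. With deposited TPM these shares were 55.1% and 11.3% in LS411N-BR, and 9.5% and 3.33% in LS411N. They stand beside every list count from here on. Of 14 mitochondrial translation factors tested, 5 were called higher and 5 lower in LS411N-BR, and 3 and 2 in LS411N. GFM2, which splits the ribosome after termination, had 8.28, 8.77 and 8.48 scaled TPM in LS411N-BR with doxycycline, against 14.2, 13.7 and 13.9 without it (-0.65 ± 0.03 SE, limma adjusted p = 3.3e-07). In LS411N it had 10.4, 10.5 and 10.3 scaled TPM with doxycycline, against 14.6, 14.4 and 15.7 without it (-0.48 ± 0.05 SE, adjusted p = 0.00026). MTIF3, an initiation factor, fell by 0.51 in LS411N-BR and 0.33 in LS411N. LETM1, an inner-membrane protein reported to bind the ribosome, rose by 0.38 and 0.28. Of 6 further genes tested, listed with the ribosome although their symbols lack the MRP form, 3 were higher in LS411N-BR and 2 in LS411N. None was lower. LACTB is within both counts, but its tie to the ribosome here is only its RefSeq synonym, MRPL56. It rose by 0.44 and 0.41, and GADD45GIP1, a large-subunit protein, by 0.17 and 0.24. With deposited TPM, 9 translation factors were higher and 2, GFM2 and MTIF3, lower in LS411N-BR, and none was called in LS411N.

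The list of mitochondrial aminoacyl-tRNA synthetases also holds QRSL1, GATB and GATC, subunits of an amidotransferase. Of its 19 genes tested, 1 was called higher and 9 lower in LS411N-BR, and none higher and 4 lower in LS411N. Over all genes tested, 31.2% were called lower in LS411N-BR and 16% in LS411N. EARS2, which charges the glutamate tRNA, had 7.57, 7.85 and 7.53 scaled TPM in LS411N-BR with doxycycline, against 11.4, 11.3 and 10.7 without it (-0.49 ± 0.04 SE, limma adjusted p = 4e-06). Levels in LS411N were 7.88, 8.32 and 8.28 scaled TPM with doxycycline, against 10.9, 10.7 and 11.5 without it (-0.39 ± 0.05 SE, adjusted p = 0.00078). WARS2, for tryptophan, fell by 0.25 in LS411N-BR and 0.24 in LS411N. Of 28 genes of ribosome assembly and rRNA processing, 4 were higher and 7 lower in LS411N-BR, and none higher and 2 lower in LS411N. MTERF3, needed for assembly of the large subunit in mice, fell by 0.52 in LS411N-BR and 0.25 in LS411N. MALSU1, an assembly factor that keeps the subunits apart, rose by 0.23 in LS411N-BR, and its 0.07 in LS411N did not pass. Of 9 genes of mitochondrial DNA maintenance and transcription, 1 was higher and 3 lower in LS411N-BR, and 2 were lower in LS411N, among them SSBP1, which coats single-stranded DNA, at -0.27 and -0.23. With deposited TPM the synthetase list turned to 7 higher and 2 lower in LS411N-BR, EARS2 among the lower. The assembly genes turned to 17 higher and 1, MTERF3, lower there. The DNA maintenance genes turned to 3 higher and 0 lower in LS411N-BR. WARS2 (-0.06) and SSBP1 (-0.07) were no longer called there. No gene of the synthetase, assembly or DNA maintenance lists was then called in LS411N. None of the 15 genes encoded in mitochondrial DNA was matched in both tables, so the transcripts that these ribosomes translate were not analysed here.

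Genes known to respond to failing mitochondrial translation moved in both directions. Of 14 mitochondrial chaperones and proteases, 5 were called higher and 3 lower in LS411N-BR, and 1 and 1 in LS411N. CLPP, a protease of the mitochondrial matrix, rose by 0.27 in LS411N-BR, and its 0.22 in LS411N did not pass (limma adjusted p = 0.074). LONP1, another matrix protease, fell by 0.42 in LS411N-BR and had 0.01 in LS411N. The chaperonin HSPE1 fell by 0.28 in LS411N, a call lost with deposited TPM (-0.20). In LS411N-BR its 0.14 did not pass, but it was called higher there with deposited TPM (0.34). Of 22 genes of the ATF4 and integrated stress response, 3 were higher and 12 lower in LS411N-BR, with a median of -0.20, and 4 higher and 2 lower in LS411N, with a median of 0.03. The sum over the list was 834 to 885 scaled TPM with doxycycline and 1043 to 1078 without it in LS411N-BR, and in LS411N it was 1837 to 1895 with doxycycline and 1693 to 1825 without it. The ranges did not overlap in either line, the sum being lower with doxycycline in LS411N-BR and higher with it in LS411N. The doxycycline effect on single genes of the list was called different between the lines for 9 of 22, all lower in LS411N-BR, where 5.58% of all genes were called in that direction. GDF15, a secreted signal of mitochondrial stress, had 53.3, 57.2 and 57.9 scaled TPM in LS411N-BR with doxycycline, against 56.6, 50.4 and 57.5 without it, and these overlap. In LS411N it had 188, 199 and 179 scaled TPM with doxycycline, against 121, 122 and 120 without it (0.64 ± 0.05 SE, adjusted p = 6e-05). SLC7A11, the cystine transporter, fell by 0.90 in LS411N-BR and 0.27 in LS411N. MTHFD2 and SHMT2, enzymes of mitochondrial one-carbon metabolism, fell by 0.57 and 0.48 in LS411N-BR. With deposited TPM, 11 chaperones and proteases were higher and 1, LONP1, lower in LS411N-BR, and the ATF4 list had 7 higher and 7 lower there, with a median of -0.04. SLC7A11, MTHFD2 and SHMT2 were then still called lower in LS411N-BR, GDF15 was called higher in both lines (0.24 and 0.72), and 2 genes of the list differed between the lines.

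Among 10 regulators of mitochondrial biogenesis, 4 were called higher and 5 lower in LS411N-BR, and 1 and 3 in LS411N. MYC, which activates many genes of ribosome production, had 91.6, 92.4 and 90.1 scaled TPM in LS411N-BR with doxycycline, against 70.4, 64.8 and 69.8 without it (0.41 ± 0.04 SE, limma adjusted p = 9.3e-06). Levels in LS411N were 83.4, 85.8 and 81.8 scaled TPM with doxycycline, against 61.6, 64.6 and 54.7 without it (0.47 ± 0.06 SE, adjusted p = 0.00092). NRF1 itself fell by 0.19 in LS411N-BR and 0.30 in LS411N. PPARGC1A, a coactivator of biogenesis, had 0.975, 1.01 and 1.07 scaled TPM in LS411N with doxycycline, against 1.98, 2.01 and 2.1 without it, and at most 0.142 in LS411N-BR. The calls of MYC and PPARGC1A held with deposited TPM, while those of NRF1 were lost (-0.03 in LS411N-BR and -0.23 in LS411N).

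The ribosomal proteins of the cytosol had a different profile. Of 82 tested, 1 was called higher and 54 lower in LS411N-BR, with a median log2 fold change of -0.18, and none was called higher and 18 lower in LS411N, with a median of -0.14. The members had medians of 0.01 and 0.07 beside these. Over all genes tested, 31.2% were called lower in LS411N-BR and 16% in LS411N. With deposited TPM the cytosolic list had 7 higher and 8 lower in LS411N-BR, with a median of 0.02, so its direction there depended on the scaling. Under either scaling its median was below that of the members. The difference between the families was not tested.

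**Figure D5:**
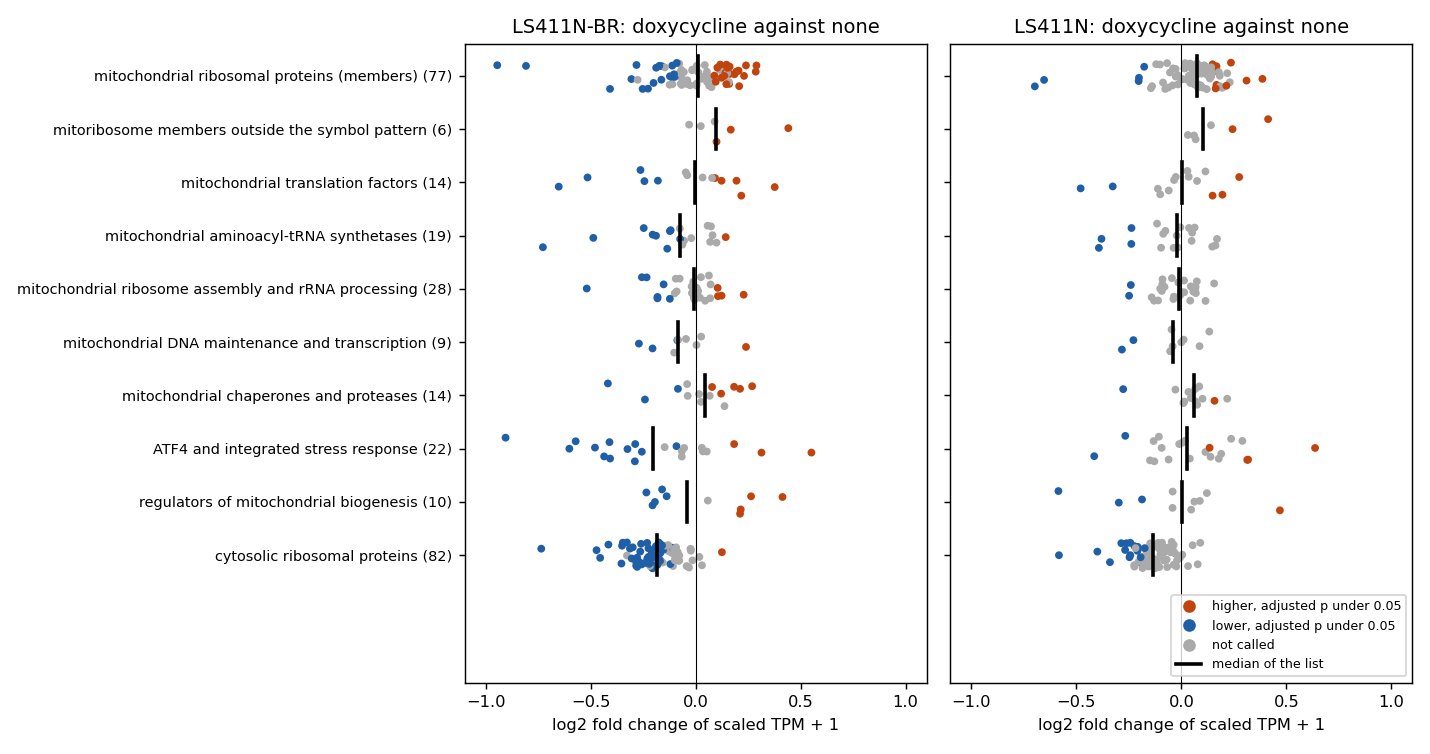
Log2 fold change with doxycycline against none of each tested gene (dots, coloured where called) in the mitochondrial ribosomal proteins, 8 lists of related genes and the cytosolic ribosomal proteins, in LS411N-BR on the left and LS411N on the right. Black bars mark the median of each list. The members centre close to 0 (medians of 0.01 and 0.07), and the cytosolic ribosomal proteins lie mostly below 0 (medians of -0.18 and -0.14).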

How the data were processed

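Per the labels' protocols, total RNA from triplicate cultures was made into TruSeq Stranded mRNA libraries. The authors deposited TPM per gene, in 1 table per line. The tool names STAR and DESeq2 and the build GRCh38 appear, per the submitters' processing notes, with no role or version. Not given in the sources used here were the TPM program, its annotation, its use of strand and the depth, so counting intervals are left out.

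The 11674 genes in both tables that reached 1 TPM in 3 or more of the 12 libraries were tested. TPM was divided by median-of-ratios factors, set jointly for the 12 libraries, over 10425 genes with at least 1 TPM in all libraries. Log2(scaled TPM + 1), a pseudocount that shrinks the fold changes of low genes, was compared within each line by limma 3.58.1 (R 4.3.3, intensity trend), two-sided, Benjamini-Hochberg adjusted, and called under 0.05. The difference between lines was the interaction over all 12 libraries. The code was tested on simulated data. Alternatives changed the scaling, pseudocount (0.1), filter (none or 5 TPM), trend, moderation, replicate block, libraries left out and source of the spread.

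Members and lists were chosen with earlier results of these data known. Named were the 6 largest called changes in each direction and line, up to 5 between lines, the 3 highest and 3 lowest levels, 8 fixed members, and up to 3 genes with the smallest adjusted p per list and line (MRPL14, MRPL54, MRPS22 and MRPS36 were chosen after their values were seen). A gene that this rule takes is not reported here. Positions came from GENCODE 29 on GRCh38.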

Additional observations from a re-analysis of the deposited data

Results flagged for a closer look

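Of the genes named by the rule above and reported here, 11 had a doxycycline effect called different between the lines. The call is the interaction term of the limma fit over all 12 libraries. Over all 11674 genes tested, 1193 (10.2%) were so called. Values are the log2 fold change in LS411N-BR minus that in LS411N. Of the mitochondrial ribosomal proteins, these were MRPL16 (-0.328), MRPS10 (-0.253) and MRPS28 (-0.313, adjusted p = 0.0453). Of the stress and one-carbon genes, the effect on GDF15 (-0.601), SLC7A11 (-0.637), MTHFD2 (-0.438) and SHMT2 (-0.372) was lower in LS411N-BR. The effect on MTERF3 (-0.269) and LONP1 (-0.431) was lower there too. The effect on POLG, the polymerase of mitochondrial DNA (0.238), and on PPARGC1A (0.644) was higher in LS411N-BR, although the levels of both were lower there. PPARGC1A had at most 0.142 scaled TPM in LS411N-BR, where the pseudocount of 1 holds its fold change near 0 (0.06). Its difference thus mostly restates its fall in LS411N (-0.59). POLG had 7.02, 7.55 and 7.4 scaled TPM in LS411N-BR with doxycycline, against 7.61, 7.54 and 7.61 without it, and 9.79, 9.48 and 9.68 in LS411N with doxycycline, against 11.7, 11.7 and 12.5 without it. Of these, with deposited TPM only SLC7A11 (-0.53) and PPARGC1A (0.61) still passed.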

How the results depend on the processing

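With deposited TPM, 1498 genes and 3 members were called in LS411N, 247 genes and 0 members differed between the lines, and the member medians were 0.15 in LS411N and 0.21 in LS411N-BR. In LS411N-BR with deposited TPM, MRPS10 (0.16), MRPS27 (0.10), MRPS26 (0.024), MRPL16 (0.042), MRPS28 (0.011), MRPL51 (0.092), MRPS35 (0.10) and MRPS18A (0.11) changed sign among the named members. Over all 77, the sign differed from that with scaled TPM in 26 in LS411N-BR, 10 of them called lower with scaled TPM, and in 10 in LS411N, none of them called. The scaling divides all genes of a library by 1 number, so it moves them together. Rescaling over protein-coding genes gave medians of 0.13 and 0.10, 1 member among 1067 genes that differed between the lines, and 0.0026 for MRPS18A. Without a filter, 9 members were called in LS411N and 23 in LS411N-BR, beside 3198 and 7343 genes. With the spread over all 12 libraries, 27 members and 6203 genes were called in LS411N-BR. Leaving out each library gave 5 to 28 called members and 2579 to 5433 called genes in LS411N, with medians of 0.056 to 0.089, and medians of -0.011 to 0.034 in LS411N-BR. It gave 1 to 9 members and 684 to 2321 genes that differed between the lines. The highest counts came without replicate 3 of LS411N without doxycycline. The cause of these shifts was not tested. Replicate numbers did not pair the libraries, since same-numbered libraries correlated at -0.0123 to 0.185. With the number as a block, 15 members were called in LS411N, 43 in LS411N-BR and 5 differed between the lines. The counts over all genes were then 4044, 7373 and 1003. The filter of 5 TPM leaves MUC1 untested. The fall of MUC1, MRPL42 and MRPL17 kept its direction and call in both lines under every alternative that gave a value. Unknown depth limits all small changes.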
